A study of Mus musculus with 2 samples.

Results

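Among 6601 droplets kept from immune cells of mouse kidneys with aristolochic acid nephropathy, 59 (0.894%, exact 95% binomial interval 0.681 to 1.15%) carried RNA of the proximal tubule, the epithelium that takes up most of what the glomerulus filters. They were chosen from measured values: a droplet belonged if it held at least 1 UMI (a tag that marks 1 captured RNA molecule) of at least 4 of the 7 genes Slc34a1, Lrp2, Miox, Slc27a2, Fbp1, Slc5a2 and Cubn, called rule genes here. Hashed sample 1 held 29 of 3115 kept droplets (0.931%) and hashed sample 2 held 30 of 3486 (0.861%). Filters of at least 500 UMIs, at least 200 genes and at most 10% mitochondrial UMIs had removed 414 of the 7015 deposited barcodes. Intervals here and below cover counting error only.

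The study collected CD45+ cells, the gate for leukocytes, from Liberase-digested kidneys of B6 mice whose treatment label reads "AAN CKD", in a series titled for week 2. The 2 hashed cell suspensions were pooled in 1 capture library and told apart by antibody hashtags, and the labels do not say that they came from separate animals, so hashed samples 1 and 2 are set side by side without a test. Some labels disagree: the sample title reads "W1 and W2" beside "Mouse 1", a protocol speaks of human kidney and a cell type label of mesenchymal stem cells, whereas the gene identifiers are those of mouse. Untreated kidney and the spatial section of the same series were not analysed here.

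The proximal tubule reabsorbs phosphate, glucose, amino acids and filtered protein, and it makes glucose from lactate and amino acids. Its cells also take up organic anions, aristolochic acid among them, through transporters of the Slc22 family; the drug is activated inside the cell, forms DNA adducts and injures this segment above others. Injured tubule cells are known to turn on Havcr1 (kidney injury molecule 1), Lcn2, Vcam1, Krt8 and Spp1, and DNA damage turns on targets of p53 such as Cdkn1a, Ccng1 and Mdm2. Epithelial cells lack CD45, the product of Ptprc, whereas macrophages carry C1q transcripts and T cells carry Cd3 and T cell receptor transcripts.

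The rule genes describe the choice and support nothing further. Slc34a1, the phosphate cotransporter encoded at chr13:55398187-55415592 of GRCm38 (plus strand), had UMIs in 54 of the 59 droplets, at 1918 and 1192 CPM (counts per 1000000, the UMIs of a gene summed over a class of droplets relative to all their UMIs) in hashed samples 1 and 2. Lrp2 (megalin, the receptor for filtered protein, chr2:69424340-69586065, minus strand) was found in 53, at 462 and 316 CPM. Miox (the inositol oxygenase, chr15:89334398-89337015, plus strand) was also found in 53, at 624 and 698 CPM, and Fbp1 (fructose bisphosphatase of glucose synthesis, chr13:62864753-62888282, minus strand) in 56, at 494 and 604 CPM. These levels follow from the rule. Droplets with at least 40 C1qa UMIs per 10000 and at most 1 rule gene, called C1qa-high here, numbered 2473 and had 12.5 and 11.2 CPM of Slc34a1. Of the other rule genes, the fatty acid transporter Slc27a2 was found in 50 droplets, the glucose cotransporter Slc5a2 in 39 and Cubn, the partner of megalin, in 33.

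At the edge of the rule, tubule RNA formed a range. The 13 droplets with exactly 4 rule genes carried a median of 8 rule gene UMIs, and the 21 with 3, just outside, carried 5. A set of 60 other tubule transport and enzyme genes, none of them in the rule, stood at a median of 96.9 UMIs per 10000 (12.7 to 593) in the first and 40.8 (1.63 to 263) in the second. Droplets with 0, 1 or 2 rule genes had medians of 9.47, 10.0 and 11.9, and those with 5, 6 or 7 had 339, 290 and 279. The highest level was 201, 240 and 359 in droplets with 0, 1 and 2 rule genes, and the lowest was 62.9, 142 and 117 in those with 5, 6 and 7. The medians thus stood apart while the ranges overlapped, at the edge and beyond it.

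**Figure D1:**
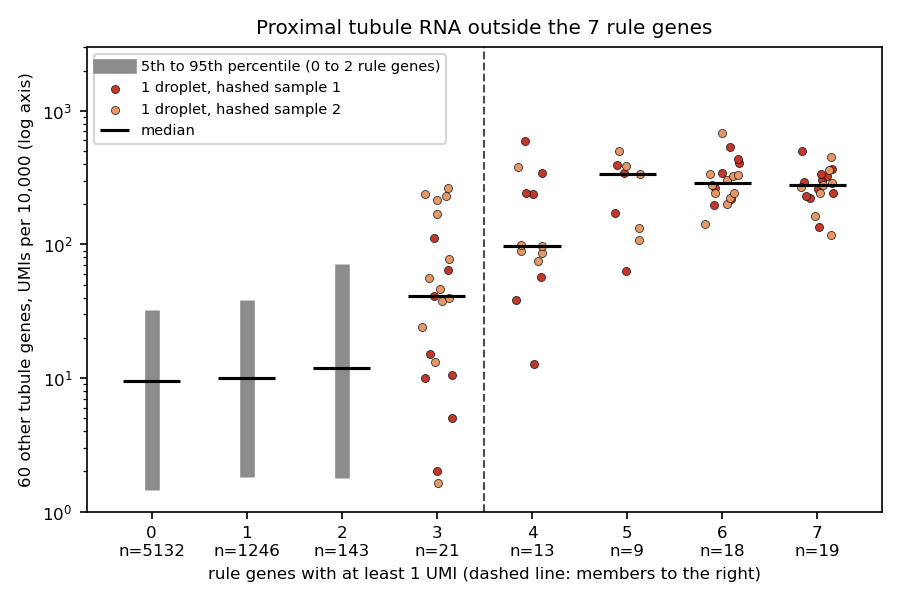
UMIs per 10000 (log axis) of 60 tubule genes outside the rule, by the number of rule genes with a UMI; points are single droplets with 3 or more rule genes, grey bars the 5th to 95th percentile of droplets with fewer, black lines medians. Medians run from 9.47 at 0 rule genes to 279 at 7, with droplets at 3 and 4 rule genes overlapping.

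Over all 59, these 60 genes stood at a median of 262 UMIs per 10000, against 14.7 in C1qa-high droplets and 5.40 in 1439 T cell droplets. T cell droplets held at least 2 of Cd3d, Cd3e, Cd3g, Trac, Trbc1 and Trbc2, at most 1 rule gene and under 40 C1qa UMIs per 10000. In 58 of 59 the level of the 60 genes lay above the 95th percentile of the C1qa-high droplets, 35.7. The exception, at 12.7, held 4 rule genes. Gpx3, the secreted glutathione peroxidase made by proximal tubule, was found in 58 droplets with a median of 72 UMIs each. After each droplet was thinned to 1000 UMIs, 94.9% of the 59 still had a Gpx3 UMI, against 13.2% of C1qa-high and 14.9% of T cell droplets. The Gpx3 shares of C1qa-high and T cell droplets were near each other and serve as the background measured for this gene.

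Listed genes of the early proximal tubule (S1 and S2) summed to higher CPM than those of its last part (S3). With the rule genes left out, 9 listed genes of segments S1 and S2 were all measured and summed to 1965 and 1402 CPM, against 245 and 294 in C1qa-high droplets. Of 11 listed S3 genes outside the rule 1 was measured, Cyp4b1 at 175 and 72.0 CPM, and the 11 summed to 242 and 131 CPM against 10.1 and 12.8. Slc7a13 and Slc22a7, typical of S3, were at 0 UMIs in all 59 droplets, where 3 UMIs would be 4.74 CPM. Relative to C1qa-high droplets, the S3 sum stood further above than the S1 and S2 sum. The rule itself holds more S1 and S2 genes than S3 genes. The lists hold different genes and no tubule reference was analysed, so the share of each segment is not read from the sums.

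Few listed genes of other kidney cells reached 50 CPM in both hashed samples. None of 10 loop of Henle genes reached 50 CPM in both hashed samples; they summed to 102 and 106 CPM, against 58 and 86 in C1qa-high droplets. Umod, the most abundant transcript of that segment, had UMIs in 8 droplets (13.6%, against 7.68% of C1qa-high droplets). Thinned to 1000 UMIs, the Umod shares were 1.69%, 1.90% and 1.77% in the 59, C1qa-high and T cell droplets. Lists of intercalated, endothelial and fibroblast genes had no measured member, and red blood cell genes summed to 0. Cdh16, the kidney cadherin of several tubule segments, was found in 30 droplets at 89.2 and 72.0 CPM, against 3.7 and 4.1. Transcription factors of the proximal tubule were present too: Hnf4a in 40 droplets (188 and 116 CPM against 2.1 and 1.5), Ppara at 112 and 122 CPM against 0.92 and 0.56, and the bile acid receptor Nr1h4 at 124 and 78.2 CPM against 0.61 and 1.1.

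The 59 droplets were deeper than other droplets. They had a median of 9485 UMIs (1333 to 39205) and 2981 genes, against 6526 and 2117 in C1qa-high and 3692 and 1449 in T cell droplets. Their mitochondrial share was 4.60% (1.15 to 9.38%), against 2.17% and 2.08%. More UMIs make the rule easier to pass: thinned to 1000 UMIs, 9 of 6371 droplets passed it and, thinned to 2000, 23 of 5948, all of them among the 59. Depth and mitochondrial share thus differed along with every comparison of the 59 with C1qa-high or T cell droplets below. Some values are also given after thinning or at other mitochondrial limits, but the part of depth and mitochondrial share was not tested.

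Hashtag counts and doublet scores were examined for mixed droplets. No barcode was shared between the hashed samples, and each of the 7015 barcodes had its own hashtag highest. The median own-hashtag count was 1399, against 931 in C1qa-high and 2555 in T cell droplets, and the other hashtag made up 2.65%, 4.96% and 1.65% of hashtag counts. Scrublet called 0 of the 59 doublets (which allows a called share of up to 5.08%) and 44 of all 6601 (0.667%), and no droplet was removed as a doublet. Scrublet simulates doublets from the droplets it is given, here sorted leukocytes. It could hardly simulate a leukocyte paired with a tubule cell, so the 0 is not read as absence of such pairs. Hashtags cannot show 2 cells of the same hashed sample in 1 droplet.

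Most of the 59 carried leukocyte RNA. Of the 5 pan-leukocyte genes Ptprc, Coro1a, Laptm5, Cd52 and Cd53, 57 droplets had at least 1, 50 had at least 3 and 26 had all 5. Ptprc itself was found in 46 (78.0%). Thinned to 1000 UMIs, 15.3% had Ptprc, against 28.3% of C1qa-high and 58.0% of T cell droplets. A list of 15 pan-leukocyte genes gave a median of 30 UMIs in a droplet (0 to 183), beside 39 in C1qa-high and 38 in T cell droplets. Per 10000 UMIs these were 31.6, 60.1 and 102, so the difference lay more in the share than in the number of molecules.

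The leukocyte RNA was of different kinds. By distinct genes, 33 droplets (55.9%, 42.4 to 68.8%) had all 3 of C1qa, C1qb and C1qc and fewer than 2 T cell genes. Another 12 (20.3%, 11.0 to 32.8%) had at least 2 of the 6 T cell genes without all 3 C1q genes, 2 (3.39%) met both conditions and 12 (20.3%) met neither. Among the 6378 kept droplets with at most 1 rule gene the same shares were 58.5%, 20.5%, 2.41% and 18.5%, each inside the interval of the 59. These kinds rest on detection of at least 1 UMI of a gene, which depth makes easier, and the 59 were deeper. Levels read against background, given below, are for the 59 only. By hashed sample, the C1q kind numbered 14 and 19, the T cell kind 8 and 4, both 0 and 2, and neither 7 and 5. Markers of the other leukocytes given a set of defining genes were rare. No droplet had at least 2 NK, type 1 dendritic or neutrophil genes, and 2 had at least 2 type 2 dendritic genes. In 1, Cd79a (5 UMIs) and Pax5 (2 UMIs) of B cells were found. Monocytes and migratory dendritic cells had no such set. Chil3, a classical monocyte gene, was in 3 droplets (56, 30 and 15 UMIs), and those with 56 and 15 were counted in the C1q kind. Ccl22, Ccr7 and Fscn1 of migratory dendritic cells were found together in 2 droplets, both of neither kind.

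Droplets of one leukocyte type also held a few UMIs of the other type's genes, so levels were read against droplets of the other kind. A C1q level above the 95th percentile of T cell droplets (18.9 UMIs per 10000) was reached by 24 of the 59, 7 and 17 by hashed sample. The T cell droplets were chosen to hold under 40 C1qa UMIs per 10000, so their C1q background was limited by that choice. A T cell level above the 95th percentile of C1qa-high droplets (1.33) was reached by 16, 9 and 7. Both were reached by 3 and neither by 22, of which 8 had MHC class II levels above those of T cell droplets. C1q thus stood above its background in fewer droplets than held all 3 C1q genes, and T cell genes in slightly more than held 2 of them.

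**Figure D2:**
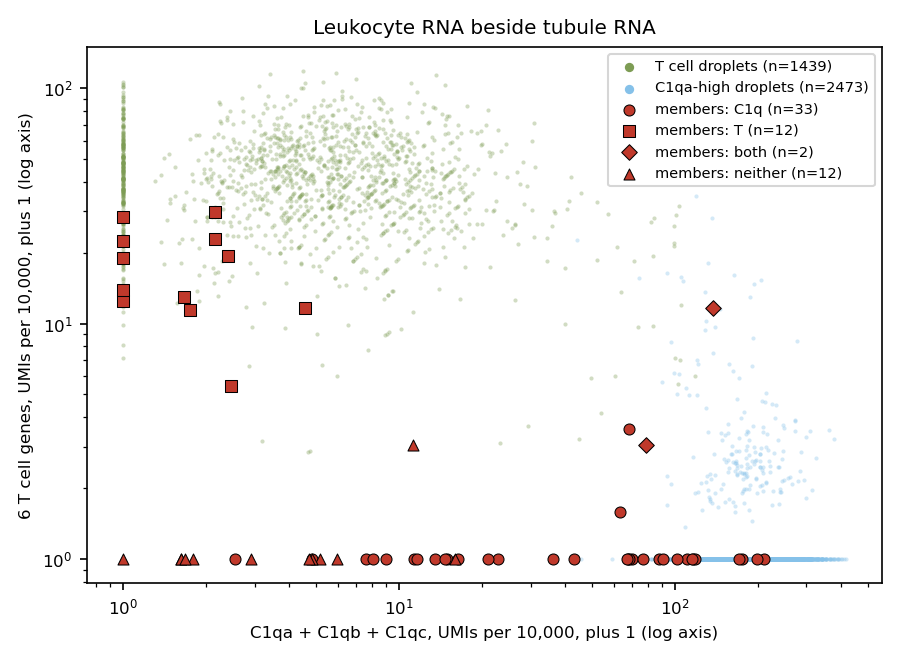
C1q level against T cell gene level per droplet, both UMIs per 10000 plus 1 on log axes; large red symbols are the 59 droplets with tubule RNA by kind, small points the 2473 C1qa-high and 1439 T cell droplets. The 12 of the T cell kind lie at the lower side of the T cell droplets, and the 33 of the C1q kind spread from the T cell droplets' C1q background up to the level of the C1qa-high droplets.

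Levels of each kind's own leukocyte genes were set beside those of its reference droplets. In the 12 T cell kind droplets the 6 T cell genes stood at a median of 15.5 UMIs per 10000 (4.41 to 28.7; 11 UMIs a droplet), against 40.4 (16 UMIs) in T cell droplets. In the 33 of the C1q kind the 3 C1q genes stood at 66.1 (1.54 to 209; 46 UMIs a droplet), against 189 (127 UMIs) in C1qa-high droplets. The C1qa-high droplets were chosen for their C1qa level, so nothing is read from the lower C1q level. Over all kept droplets with 0 and with 1 rule gene, whatever their kind, the median C1q level was 55.9 and 60.8 per 10000. MHC class II genes were at 141 per 10000 in the C1q kind, 8.01 in the T cell kind and 18.4 in those with neither. Own-hashtag counts, which the rule did not use, had medians of 2088 in the T cell kind and 1010 in the C1q kind, near the 2555 and 931 of T cell and C1qa-high droplets.

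Tubule RNA was found in all kinds. Enzyme genes summed to 19645 CPM in the C1q kind, 25819 in the T cell kind and 22052 in those with neither, and the 60 tubule genes had medians of 243, 313 and 336 UMIs per 10000. Ccl5, a chemokine of T cells, was at 1876 CPM in the T cell kind (10 of 12 droplets), 969 in those with neither (2 of 12) and 40 in the C1q kind (6 of 33), and 104 of the 112 UMIs of those with neither lay in 1 droplet. Of the 12 droplets with neither, the pan-leukocyte list stood at a median of 10.1 UMIs per 10000. In 6 droplets at most 1 of the 5 pan-leukocyte genes was seen, with a median of 5282 UMIs and 420 tubule gene UMIs per 10000.

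**Figure D3:**
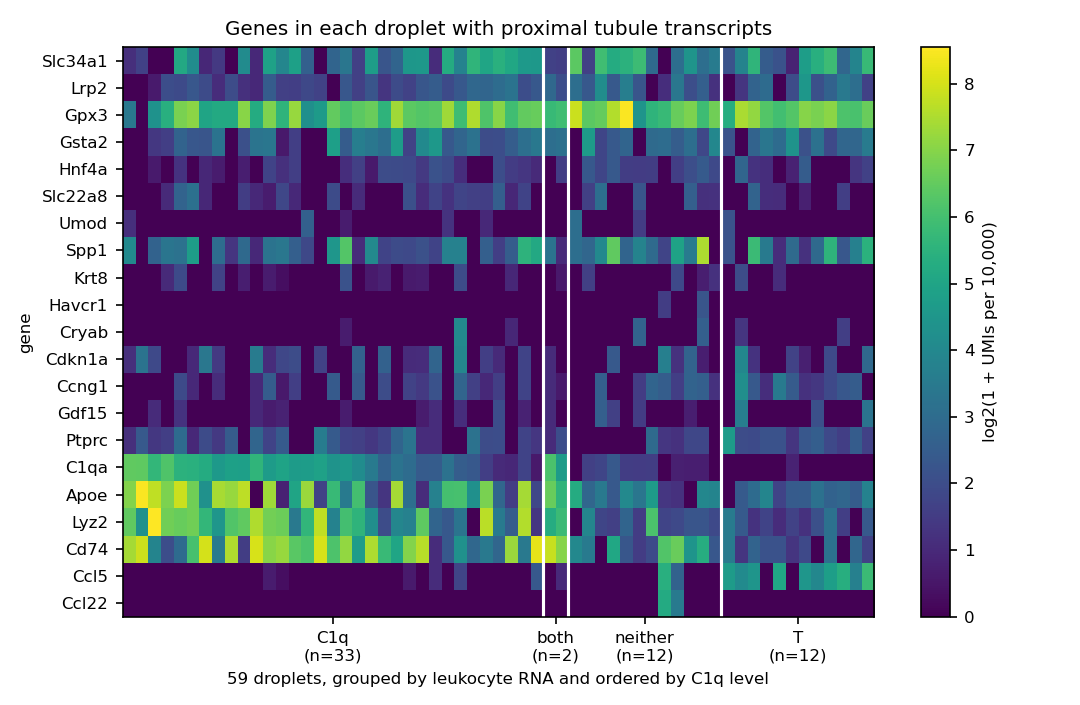
Log2 of 1 plus UMIs per 10000 of 21 genes (rows) in each of the 59 droplets (columns), grouped by leukocyte RNA and ordered by C1q level. Gpx3 is bright in 58 of the 59. C1qa fades from left to right across the C1q kind, which follows from the ordering. Apoe, Lyz2 and Cd74 vary without following that order throughout, and the last droplet of the C1q kind held 590 Cd74 UMIs. Ccl5 is seen in 10 of the 12 droplets of the T cell kind and is high in 1 with neither, and Havcr1 is seen in 2 droplets.

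Against C1qa-high droplets, tubule metabolism and transport were higher and macrophage genes lower in both hashed samples. A gene was measured if it reached 50 CPM in either class in each hashed sample, and counted if, with 10 CPM added, each hashed sample showed a difference of 1.5-fold or more in the same direction. Of 3224 measured genes, 738 (22.9%) were counted higher and 412 (12.8%) lower, with a median log2 ratio of 0.04. Tubule genes chose the droplets and C1qa chose those they were compared with, so nothing is read from the direction of either set. Of the 738, 543 were below 50 CPM in C1qa-high droplets in at least 1 hashed sample. Such genes, 782 in all, could not be counted lower, and are called measured through the 59 alone. Of the other 2442, at or above 50 CPM in C1qa-high droplets, 195 were higher and 412 lower. Counts by list below are to be set beside these counts over all genes.

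The split depended on the scaling. With TMM factors the median of the measured genes moved to -0.32, and 461 were counted higher and 861 lower (34.9% of counted genes higher, against 64.2% by total UMIs). Scaled to equal pan-leukocyte UMIs the median was 0.75, with 2017 higher and 60 lower (97.1%). No gene was counted the opposite way under these scalings. Lists near the median of all genes therefore have no settled direction, and some farther from it changed sign too. With pan-leukocyte scaling the infiltrating and lipid-associated macrophage list went from -0.59 to 0.17 and the inflammatory list from -0.58 to 0.18. The proximal tubule, resident macrophage and myeloid lists kept their sign under both other scalings.

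Listed enzymes of tubule metabolism were among the higher genes. Gpx3 was at 8037 and 8138 CPM against 145 and 117 in C1qa-high droplets, 63.3-fold higher over both (95% interval 60.2 to 66.6). Pck1, the rate-limiting enzyme of glucose synthesis, was at 2431 and 2228 CPM against 36.5 and 30.8 (70.7-fold). For both genes, both hashed samples lay above all 4 values of C1qa-high and T cell droplets, where Pck1 was at 30.1 and 46.0 CPM. Also named by the rule of largest ratios were the stress-linked Ndrg1 (70.5-fold), Rida (58.2-fold), the sulfotransferase Sult1d1 (68.6-fold), cytidine deaminase Cda (83.4-fold) and the glutathione transferase Gsta2 (51.2-fold). Of 36 listed enzyme genes 25 were measured and 24 were higher (median log2 ratio 4.19), of which 22 were below 50 CPM in C1qa-high droplets and so had to be higher once measured. The exception, the dipeptidase Cndp2, was at 140 and 93.9 CPM against 155 and 170.

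Transporters followed. The bicarbonate cotransporter Slc4a4 was at 924 and 932 CPM against 10.5 and 12.5 (78.9-fold, 67.1 to 93.0). The sulfate transporter Slc13a1 was 126.0-fold, the lactate transporter Slc5a12 202-fold (142 to 297) and the export pump Abcc2 127-fold higher. Of 24 listed transport genes 14 were measured and 13 were higher (median 3.14), all 13 of them measured through the 59 alone. Dab2, the adaptor of megalin that macrophages also express, was the exception at 401 and 582 CPM against 497 and 792.

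Genes of the nuclear-coded respiratory chain, all measured above 50 CPM in C1qa-high droplets too, were higher for 14 of 17. Over all genes at or above that level in C1qa-high droplets, 195 of 2442 were higher. The median of the list was 0.82 (0.44 with TMM and 1.60 with pan-leukocyte scaling, with 6 and 17 higher). Cytochrome c, Cycs, was at 386 and 472 CPM against 86.5 and 115, 4.13-fold higher (3.62 to 4.69). Ndufa4, a subunit of complex IV, was at 564 and 713 CPM against 191 and 233. Cox4i1, at 1510 and 1596 CPM against 1266 and 1271, was not counted. The level of the list in single droplets was 104 UMIs per 10000 (30.9 to 246), and 41 of 59 lay above the 95th percentile of C1qa-high droplets, 89.4.

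Genes of macrophage identity were lower. All 15 resident macrophage genes (median log2 ratio -1.96) and all 12 myeloid genes (-1.54) were counted lower, and both medians stayed negative under both other scalings, with 8 and 6 genes still counted lower with pan-leukocyte scaling. The resident list holds C1qa, which chose the comparison droplets. Apoe, the apolipoprotein of tissue macrophages, was at 4568 and 5560 CPM against 39824 and 27896, 6.40-fold lower (6.18 to 6.63). C1qc was at 790 and 1089 CPM against 4605 and 4447 (4.79-fold lower). Trem2, the lipid receptor, was 5.33-fold lower, the tetraspan gene Ms4a7 7.96-fold, Fcrls 7.92-fold and the complement receptor C5ar1 5.11-fold. The monocyte attractants Ccl12, Ccl7 and Ccl2 were 8.56-fold, 6.50-fold and 5.57-fold lower, and Ptgs1, Tnfaip8l2 and Pla2g7 were 8.16-fold, 5.13-fold and 4.20-fold lower.

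Engulfment and lysosome genes were lower as well. Over all measured genes 12.8% were lower, and 412 of the 2442 at or above 50 CPM in C1qa-high droplets. Of 9 measured engulfment genes 6 were lower (median -1.08), among them the receptors Mertk (66.9 and 40.7 CPM against 125 and 71.4) and Axl (44.6 and 72.0 against 143 and 120). Of 15 lysosome genes 10 were lower (median -1.08), such as the protease Ctsb at 847 and 569 CPM against 1721 and 2061. Both medians kept their sign under TMM and pan-leukocyte scaling, at -1.42 and -0.35 and at -1.47 and -0.30, though with pan-leukocyte scaling 0 and 1 genes stayed counted lower. Of 7 MHC class II genes 3 were lower (median -0.92), with Cd74 at 7333 and 9017 CPM against 17680 and 14046; with TMM 6 were lower, and with pan-leukocyte scaling 0 were lower and 1 higher. Of 15 pan-leukocyte genes 7 were lower and 1, the lymphocyte gene Cytip, higher (median -0.85); Ptprc was not counted, at 293 and 241 CPM against 298 and 340.

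Of 15 T cell genes 2 were measured, both through the 59 alone: Trbc1 at 70.1 and 72.0 CPM against 5.3 and 1.7, and the interleukin 7 receptor Il7r at 79.6 and 72.0 against 8.5 and 5.9. In T cell droplets Trbc1 was at 558 and 652 CPM. G0s2, a lipase inhibitor on the neutrophil list, was at 194 and 65.7 CPM against 1.1 and 1.6 and was found in 33 droplets. No droplet had 2 of the 3 defining neutrophil genes. Plac8, of the classical monocyte list, was at 108 and 59.4 CPM against 2.6 and 2.5, and T cell droplets had 154 and 72.5.

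**Figure D4:**
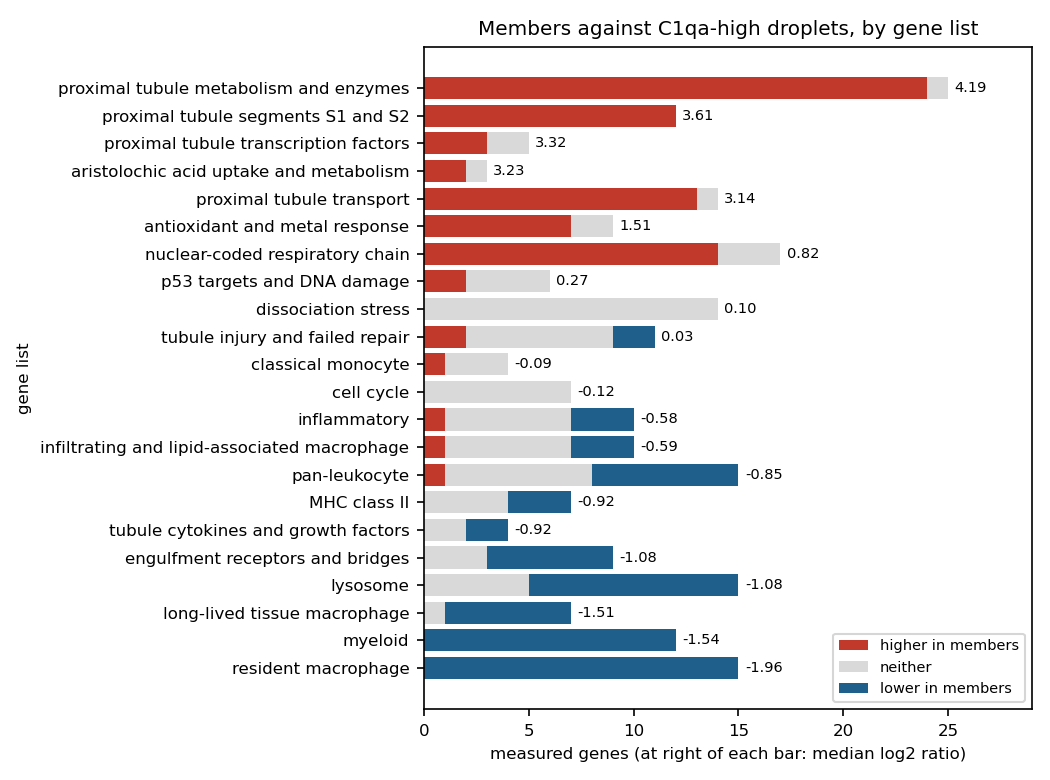
Measured genes of each list that were counted higher (red), lower (blue) or neither (grey) in the 59 droplets against C1qa-high droplets, with the median log2 ratio at the right of each bar, for lists with at least 3 measured genes. Tubule lists fill with red at the top, and all 15 resident macrophage and 12 myeloid genes are blue at the bottom.

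The injury list did not move as a group. Of 30 listed genes of tubule injury and failed repair 11 were measured, 2 were higher (Spp1, Krt8) and 2 lower (Anxa3, Pla2g7, both also expressed by macrophages), with a median log2 ratio of 0.03 beside 0.04 over all measured genes; the median was -0.36 with TMM and 0.82 with pan-leukocyte scaling. Level by droplet was 29.4 UMIs per 10000 in the 59, against 24.2 in C1qa-high and 37.5 in T cell droplets. Without Spp1 the levels were 20.1, 22.0 and 36.5.

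Spp1, osteopontin, was at 2243 and 1108 CPM, against 273 and 465 in C1qa-high and 430 and 162 in T cell droplets, 4.26-fold above C1qa-high (3.99 to 4.55). It was found in 53 droplets (89.8%), and after thinning to 1000 UMIs in 57.6%, against 18.6% and 10.0%. A single droplet of hashed sample 1 held 290 of its 1058 UMIs and the next 132, and without the first the mean log2 ratio was 1.77 instead of 2.11. Macrophages also make Spp1, and C1qa-high droplets reached 496 UMIs. Krt8, a keratin of simple epithelia, was at 63.7 and 53.2 CPM against 4.6 and 3.7 (14.4-fold, 9.39 to 21.7), in 20 droplets (33.9%) against 2.35% and 2.08%.

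Havcr1, the best known marker of proximal tubule injury (chr11:46735080-46779578 of GRCm38), was rare. It had 11 UMIs in all, 6 and 5, in 2 of the 59 droplets (3.39%, 0.413 to 11.7%), 1 in each hashed sample, against 0.890% of C1qa-high and 0.625% of T cell droplets. Summed, it stood at 19.1 and 15.6 CPM against 1.5 and 1.8. Vcam1, of failed repair, was at 38.2 and 6.3 CPM against 121 and 36.1, and 10 of its 14 UMIs were in 1 droplet. Lcn2 was at 6.4 and 15.6 CPM against 7.2 and 19.3. Sox9, of regenerating tubule, had 0 UMIs, which allows a share of up to 5.08% of droplets with a UMI. Prom1, which marks scattered tubule cells, was seen in 14 droplets (23.7%) against 0.485%, at 41.4 and 18.8 CPM.

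Several injury and repair transcripts came largely from single droplets, chosen here after their values were seen, whereas others on the list, such as Vim (42 droplets), S100a6 (43) and Plin2 (37), were spread widely. A droplet of the C1q kind in hashed sample 1, with 16946 UMIs, held 26 of 41 Cryab, 7 of 11 Krt18, 31 of 54 Hbegf and 8 Sprr1a UMIs, with 69 of S100a6 and 24 of Cdkn1a. Cryab is a small heat shock protein, Krt18 pairs with Krt8, and Hbegf is a growth factor that injured epithelium releases. The droplet with 290 Spp1 UMIs, of 15963 in all, held 6 of the Havcr1 UMIs, 8 of Cryab and 8 of 9 of Kap, a gene of proximal tubule that responds to androgen, and was of neither kind. The other droplet with Havcr1, in hashed sample 2 with 25387 UMIs, held 92 of Ccl22, 32 of Fscn1 and 16 of Ccr7, genes of migratory dendritic cells, beside 30 of Cdkn1a and 12 of Ccng1. A further droplet of that sample held 15, 13 and 16 of the same 3 dendritic genes.

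Of 2 p53 targets counted higher, 1, Ccng1, was above both backgrounds, and the list had no settled direction. Of 16 listed genes 6 were measured, 2 were higher and 0 lower, beside 22.9% higher over all measured genes, and both of the 2 were below 50 CPM in C1qa-high droplets. The median was 0.27, and it was -0.09 with TMM (1 higher, 1 lower) and 0.98 with pan-leukocyte scaling (8 of 9 then measured were higher). Ccng1, cyclin G1, was at 255 and 188 CPM, against 48.5 and 45.5 in C1qa-high and 68.8 and 59 in T cell droplets, 4.74-fold above C1qa-high (3.93 to 5.67), and was found in 38 droplets with at most 12 UMIs in one. Trp53inp1 was at 82.8 and 56.3 CPM against 38.4 and 15.3, and T cell droplets had 97.6 and 68.9. Cdkn1a, the p21 cell cycle inhibitor, was not counted, at 245 and 278 CPM against 255 and 251, while T cell droplets had 45.8 and 70.3.

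Other p53 targets missed the 50 CPM minimum in hashed sample 2, with Mdm2 at 82.8 and 46.9 CPM against 35.2 and 32.9, Gdf15, a secreted stress cytokine, at 76.5 and 40.7 against 9.3 and 15.1, and the stress sensor Sesn2 at 63.7 and 34.4 against 7.9 and 7.9. Bax, the death effector, was at 153 and 141 against 215 and 241. Thinned to 1000 UMIs, Ccng1 was in 11.9% of the 59, 5.30% of C1qa-high and 6.0% of T cell droplets, Gdf15 in 8.47%, 0.993% and 0.636%, and Mdm2 in 5.08%, 3.56% and 3.11%. Of these genes, Mdm2 had the shares that lay closest together. In single droplets the p53 list stood at 13.5 UMIs per 10000 (0 to 100), against 7.48 in C1qa-high and 8.77 in T cell droplets, and 1 of 59 lay above the 95th percentile of C1qa-high droplets. By kind, the summed list was at 1264 CPM (1156 to 1379) in the C1q kind and 2090 (1800 to 2414) in the T cell kind. In those with neither it was at 1722 (1491 to 1978). In the T cell kind, 1 droplet held 68 of the 185 UMIs of the list, at 100 per 10000. Medians over single droplets lay closer together, at 11.98, 14.89 and 14.45 UMIs per 10000 in the C1q kind, the T cell kind and those with neither. No difference between kinds is read from the sums. Ccng1 was at 140, 452 and 363 CPM in the same order.

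Several antioxidant genes were higher. Of 12 listed genes 9 were measured, 7 were higher and 0 lower, beside 22.9% and 12.8% over all measured genes. The median was 1.51 (1.12 with TMM, where 6 were higher and 2 lower, and 2.20 with pan-leukocyte scaling). Of the 7, 5 were measured through the 59 alone. Of the 4 genes at or above 50 CPM in C1qa-high droplets 2 were higher, beside 195 of 2442 over all such genes. Gsta2, which conjugates lipid peroxidation products, was at 487 and 832 CPM against 11.3 and 13.9, and was found in 51 droplets; thinned, in 49.2%, 1.49% and 2.54%. Gpx4, which reduces lipid peroxides in membranes, was at 946 and 1245 CPM against 382 and 369, in all 59 droplets. Catalase, Cat, was at 166 and 291 against 37.8 and 43.9. The enzymes of glutathione synthesis Gclc and Gclm, thioredoxin reductase Txnrd1 and Sod1 were the other 4. Hmox1, which breaks down heme and is abundant in macrophages, was at 102 and 37.5 CPM against 137 and 185, and the metal-binding Mt1 at 261 and 307 against 451 and 415. Gsta2, Cat and Gpx4 are also abundant in healthy proximal tubule, which was not analysed here.

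Genes that take up and activate aristolochic acid were seen. The organic anion transporters Slc22a6 (Oat1) and Slc22a8 (Oat3) were at 124 and 68.8 and at 156 and 113 CPM, against 1.2 and 0.75 and 1.2 and 1.1, and were found in 24 and 32 of the 59. Nqo1, a reductase that activates the drug, was at 19.1 and 43.8 CPM against 0.46 and 1.1, in 14 droplets. Of 12 genes on the list 3 were measured and 2, both transporters, were higher (median 3.23).

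**Figure D5:**
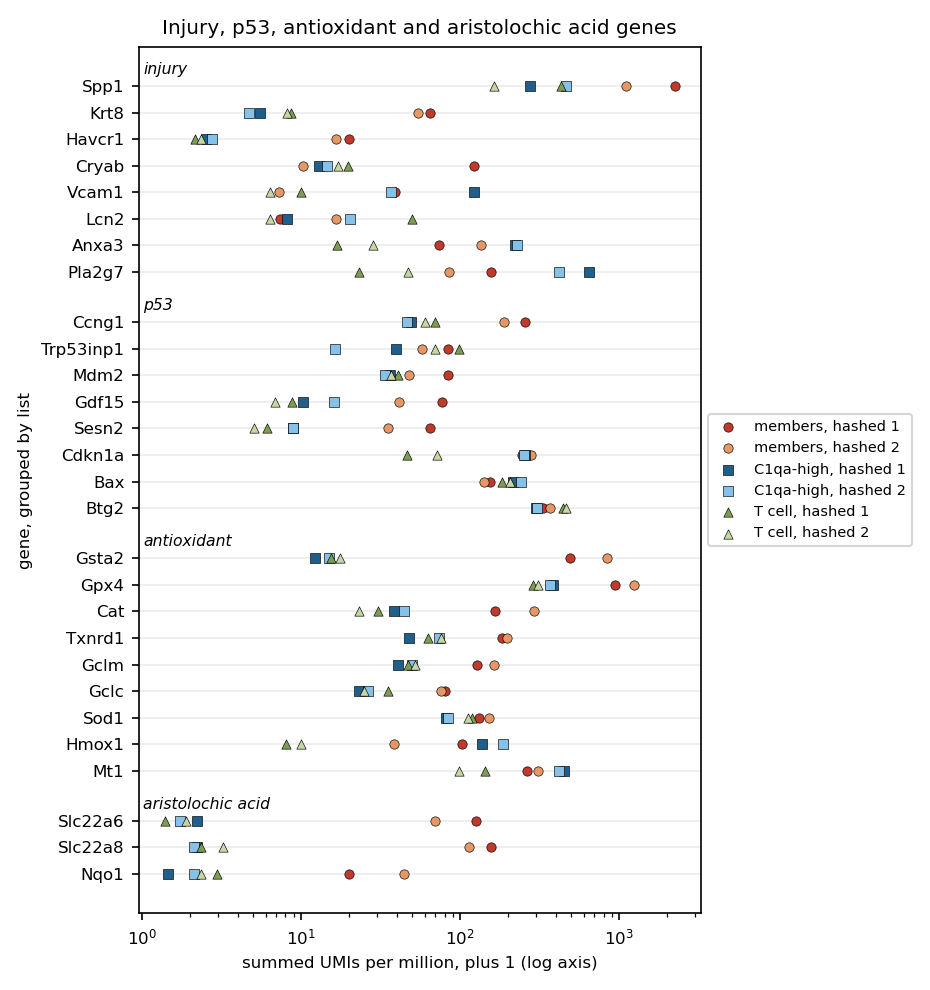
Summed CPM plus 1 (log axis) of injury, p53, antioxidant and aristolochic acid genes in the 59 droplets (circles), C1qa-high droplets (squares) and T cell droplets (triangles), with hashed samples 1 and 2 in dark and light. Spp1, Krt8, Ccng1, Gsta2, Gpx4, Slc22a6 and Slc22a8 lie to the right in both hashed samples, whereas Cdkn1a overlaps with C1qa-high droplets and Anxa3 and Pla2g7 lie to the left of them.

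Cytokines and growth factors of injured tubule, dissociation stress and the cell cycle gave no call upward by total UMIs or with TMM. With pan-leukocyte scaling 2 of 5 measured cytokine genes and 9 of 14 dissociation stress genes were higher, and 1 and 0 lower. Of 4 measured cytokine genes 2, Ccl2 and Cxcl16, were lower (169 and 116 against 577 and 922 CPM for Ccl2). Of 14 dissociation stress genes 0 were counted by total UMIs (median 0.10, -0.28 with TMM and 0.85 with pan-leukocyte scaling). Of 7 cell cycle genes 0 were counted (median -0.12, with 0.78 and -0.80 in hashed samples 1 and 2). A droplet of hashed sample 1, the deepest at 39205 UMIs, held 18 Mki67 and 21 Top2a UMIs.

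Only 8 of the 59 (13.6%, 6.04 to 25%) reached 40 C1qa UMIs per 10000, and they held 4 to 36 rule gene UMIs and a median of 116 tubule gene UMIs per 10000, against 278 in the other 51. Set against C1qa-high droplets, which share the minimum of 40 and have no upper limit, these 8 had 273 of 2818 measured genes higher (9.69%). Lower were 235 (8.34%). Tubule genes led: Gpx3 at 1405 and 7335 CPM against 145 and 117, and Slc13a1 at 95.8 and 642 against 4.3 and 5.1. Ndrg1, Cda, Slc4a4, Akr1c21 and the apolipoprotein Apob were 36.0-fold to 46.2-fold higher. The genes named as lower were at 0 UMIs in these 8 (Cxcl9, Cxcl10, Tra2b, Nmt1, Nras, Dst, Samm50) or had 2 UMIs (Fcrls), too few for a fold.

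Within the 59, the 51 below that C1qa level had 516 of 3224 genes (16.0%) higher and 298 (9.24%) lower than the 8 above it. The C1qa level made this split, and the droplets of the T cell kind and of neither kind all fell among the 51. Nothing is therefore read from the direction of T cell or macrophage genes here. Ccl5 was at 396 and 674 CPM against 0 UMIs, the thyroxine carrier Ttr at 237 and 106 against 0, and the chitinase-like Chil3 at 304 and 55.0 against 0, though Chil3 came from 3 droplets of 56, 30 and 15 UMIs and Ttr from 7. Without its top droplet, Ccl5 was at 323 CPM in hashed sample 2, and Ttr at 97.2 CPM in hashed sample 1. Cxcl9, of which 1 droplet held 70 of 92 UMIs, Pter and Dst were likewise at 0 in the 8. Lower were macrophage chemokines: Ccl7 at 3.5 and 11.0 CPM against 543 and 556, Ccl2 at 63.7 and 66.0 against 1117 and 406, and Pf4 at 31.8 and 216 against 1245 and 813. Ccl12, Ccl3 and C5ar1 were 14.2-fold, 9.74-fold and 13.4-fold lower. These chemokines also came from few droplets: Ccl7 was in 3 of the 8, and without its top droplet stood at 543 and 109 CPM. All UMIs of Ccl12 and Ccl3 in the 8 from hashed sample 1 lay in 1 droplet each, and without its own top droplet Pf4 was at 230 and 813 CPM.

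The hashed samples differed more among the 59 than among C1qa-high droplets, whose sums hold many more UMIs. Of 3832 measured genes 407 (10.6%) were at least 1.5-fold higher and 606 (15.8%) lower in hashed sample 2 than in 1, against 1.71% and 1.25% of 2799 in C1qa-high droplets. The 59 gave 313916 and 319622 UMIs in the 2 hashed samples and the C1qa-high droplets 6555709 and 10698105. Among them were genes held by 1 or few droplets, such as Cryab (121 and 9.4 CPM), Hbegf (150 and 22 CPM) and the lipid carrier Fabp5 (38.2 and 598 CPM), of which 164 UMIs lay in the droplet with Ccl22.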

How the data were processed

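Single-cell RNA libraries of CD45+ mouse kidney cells were read from the filtered matrices of 2 hashed samples of 1 GEO sample. The values are raw UMI counts per gene and hashtag, deposited by the authors. Per the file headers the matrices were made with Cell Ranger 6.1.1; mm10, Seurat 4.3.0 and Cell Ranger 6.0 stand in the submitters' processing notes. The deposited barcodes held 20743037 and 25314154 gene UMIs (3315 and 3700 barcodes); kept droplets had medians of 5688 and 6570 UMIs.

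Counts were summed per class and hashed sample and scaled to counts per 1000000 (CPM). With 1 GEO sample and no named replicates, no test was made; binomial (Clopper-Pearson), Poisson and conditional ratio intervals at 95% are exact. Log2 ratios carry 10 CPM added, and printed folds carry none. The genes named by rule are the 12 highest and the 12 lowest by mean log2 ratio (8 and 8 for the C1qa-high droplets among the 59, 6 and 6 for the split by C1qa), at most 4 per gene list, without rule genes, C1qa, mitochondrial, ribosomal, T cell receptor, immunoglobulin and sex-linked marker genes, and unnamed models; 1 gene named by this rule is not reported here. The members and 40 gene lists were chosen with earlier results of these data known. Doublets were scored with Scrublet (scanpy 1.11.5) and kept. Alternatives were TMM and pan-leukocyte scaling, other pseudocounts, minimums and folds, other limits on rule genes, C1qa and mitochondrial UMIs, thinning, doublet removal and leaving out each hashed sample; alternatives added after seeing the data were means over droplets, and leaving out the deepest droplet, T cell kind droplets or the top droplet of a gene. Positions are from GENCODE vM21 (GRCm38). Scripts used Python 3.11.15, numpy 2.4.6, scipy 1.17.1, pandas 2.3.3, scikit-learn 1.9.0 and matplotlib 3.10.9, and the counting steps were tested on simulated data.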

Additional observations from a re-analysis of the deposited data

Results flagged for a closer look

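Signals also lay in data outside the comparisons. A hashtag assigned to neither hashed sample had 286 counts in 273 of 7015 barcodes, at most 2 in 1 barcode, and 2 of the 59 droplets held such a count. Among the 414 barcodes removed by the filters, 18 (4.35%, exact 95% interval 2.60 to 6.78%) held at least 4 rule genes, 7 and 11 by hashed sample, with a median mitochondrial share of 14.8% (10.3 to 43.5%) and a median of 6853 UMIs.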

How the results depend on the processing

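The counts of 738 genes higher and 412 lower moved with the scaling: 461 and 861 with TMM, 2017 and 60 with pan-leukocyte scaling. They were 484 and 166 at a 2-fold limit, 168 and 155 of 717 genes at a minimum of 200 CPM, and 2011 and 685 of 14977 with no minimum; a pseudocount of 50 CPM left 262 lower. Droplets thinned to 2000 UMIs gave 895 higher and 509 lower, and a limit of 5% mitochondrial UMIs gave 657 and 347. Leaving out each hashed sample in turn gave 1077 to 1261 higher and 575 to 718 lower, since agreement with a second sample is then not asked for. The share of droplets was 1.21% with at least 3 rule genes, 0.561% at most 5% mitochondrial UMIs, and 0.141% and 0.387% after thinning to 1000 and 2000 UMIs; Ptprc was in 15.3% after thinning, and Havcr1 in 0.0% at most 5% mitochondrial UMIs, a limit that leaves 34 droplets. List medians changed sign in 27 cases over 7 lists. With TMM these were tubule injury (-0.36), p53 (-0.09) and dissociation stress (-0.28); with pan-leukocyte scaling, infiltrating and lipid-associated macrophage (-0.59 to 0.17), inflammatory (0.18), classical monocyte (0.69) and cell cycle (0.56). The other 20 were of the injury, p53, dissociation, monocyte and cell cycle lists, whose medians lay within 0.27 of 0. Of 432 ratios of named genes under the alternatives, 298 moved by less than their error, 134 by more and 0 changed sign; of 391 list medians 287 moved by less than their spread. No paired analysis was possible because there is 1 GEO sample and no test. With 633538 UMIs in the 59 droplets, a gene at 0 could be present at up to 4.74 CPM.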
